A study of Canis lupus familiaris with 8 samples.

Results

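Lysosomal enzymes, their sorting receptor and the cholesterol export proteins of the lysosome were followed in a canine mammary adenocarcinoma line, its doxorubicin-resistant subline and the cells sorted from each. The group holds 10 genes: NPC1, NPC2, CTSD, IGF2R, GUSB, GLB1, FUCA1, GALC, SGSH and TPP1. They were chosen by name, with earlier results of these data known. Every gene probe of the array whose accession maps to any of them was taken, which gave 23 of the 43603 gene probes. GLB1 had 9 probes, IGF2R had 3, NPC1, NPC2 and FUCA1 had 2 each, and the other genes had 1. All 10 genes and all 23 probes passed the filter on dim probes, as did 976 of the 1458 genes that could be named. GALC and TPP1 passed through the groups of the resistant line, since neither was well above background on any array of the sensitive line.

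Total RNA was measured on 8 one-colour arrays, 2 per group. Stylo parent is the unsorted CMT-Stylo line, labelled as not treated. Star parent is the unsorted CMT-Star line, derived from CMT-Stylo by raising doxorubicin over several months until the cells resisted 100 nM, and labelled as doxorubicin treated. Stylo CSC and Star CSC are the CD44+, CD24-/low and ALDH+ cells sorted by flow cytometry from the respective line, which the study calls cancer stem cells. All cells grew in the same medium with serum. CMT-Star is a single subline of a single parent line, so resistance here is that of 1 derivation, and the labels do not say whether replicates were separate cultures. Each p-value thus reflects array-to-array spread alone, part or all of which may be technical.

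Lysosomes are acidic organelles in which hydrolases break down proteins, glycans and lipids. Most soluble hydrolases receive mannose 6-phosphate in the Golgi and are carried towards the lysosome by receptors that bind this tag, one of which is the product of IGF2R. Cholesterol freed from endocytosed lipoprotein is bound in the lysosome lumen by NPC2 and passed to the membrane protein NPC1, through which it leaves. Inherited loss of these proteins causes storage diseases: Niemann-Pick type C for NPC1 and NPC2, GM1 gangliosidosis for GLB1, fucosidosis for FUCA1, Krabbe disease for GALC, Sanfilippo syndrome type A for SGSH, Sly syndrome for GUSB and a neuronal ceroid lipofuscinosis for TPP1 or CTSD. Doxorubicin is a weak base, and such drugs collect in acidic vesicles.

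Levels below are log2 processed signals relative to the 75th percentile of the same array, so 0 is the level of that percentile. Levels of different probes are not compared. The 75th percentile was 88.8 and 69.5 units on the Stylo parent arrays and between 297 and 540 units on the other 6. Spots well above background made up 47.4% and 46.7% on the Stylo parent arrays and 55.5% to 60.7% on the others, and 32.4% and 33.7% of the signal came from the top 100 spots, compared with 12.7% to 22.7%. Both comparisons with Stylo parent rest on these arrays and share them; the part of the lower signal in their results was not tested. Replicate arrays correlated at 0.981 or higher over the probes, and no spot was saturated. All arrays of the Stylo line were on slide 1 and all arrays of the Star line on slide 2, so line and slide cannot be told apart. With 2 arrays per group, precision is limited by their number.

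Markers of other cell types moved between these groups as well. Of 15 leukocyte markers 4 could be named, and their summed level relative to the 75th percentile was 0.178 to 0.185 in Stylo parent, 0.0496 to 0.0700 in Stylo CSC, 0.129 to 0.164 in Star parent and 1.04 to 1.08 in Star CSC. In Star CSC this sum was carried by CD86, at -0.07 and -0.02, while CD163, TYROBP and CD79A lay between -5.37 and -4.51. Over Star parent CD86 and TYROBP were called higher there, CD79A was not called (-0.16) and CD163 was not tested. CD163, CD86 and TYROBP were not well above background on any Stylo array. Of 9 fibroblast markers 5 could be named, and their sum was 77.2 to 83.9 in Stylo parent, 605 to 647 in Stylo CSC, 125 to 197 in Star parent and 113 to 124 in Star CSC. The sum adds different probes, and COL1A2 had the highest level of the 5 on every array. In Star parent over Stylo parent COL1A2 rose by 1.09, while DCN fell by 5.47, COL1A1 fell by 3.01 and PDGFRB fell by 2.36, and the median of the 5 was -2.36. The lines are labelled as carcinoma, yet the epithelial transcripts KRT19, CDH1 and MUC1 failed to clear background in Stylo parent, as did KRT19 and MUC1 in Stylo CSC. CLDN3, the other named luminal marker, was well above background on all 4 Stylo arrays, and the basal keratin KRT14 on all 8. The part of these markers in the results below was not tested. In bulk RNA, fewer cells of a type and less RNA per cell cannot be told apart.

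For 6 of the 10 genes the lowest mean level on the brightest tested probe, relative to the rest of the array, was that of the unsorted sensitive line. How often other genes of the array had their lowest mean there was not counted. Between Star parent and Stylo parent, NPC1, CTSD, IGF2R, GUSB, GLB1 and SGSH rose, no gene fell, and NPC2, FUCA1, GALC and TPP1 were not called. A gene was called when its brightest tested probe differed at least 2-fold with an adjusted p below 0.05 (limma, Benjamini-Hochberg over all 26819 tested probes, two-sided). These 6 of 10 genes stand beside 24.6% of all tested probes and 20.6% of the named genes called higher in the same comparison. The list was chosen with earlier results of these data known, so these shares describe it and are no test of enrichment. The shares called lower were 32.0% of probes and 39.3% of named genes, and those called in either direction 56.6% and 59.9%. The median change of the 10 genes was 1.73 on the log2 scale, against -0.20 over all tested probes. Between Stylo CSC and Stylo parent, NPC1, IGF2R, GUSB, GLB1 and SGSH rose and GALC was called lower. Higher calls took 21.9% of probes and 19.4% of named genes there, lower calls 32.1% and 37.8%, and both 54.0% and 57.2%. The median change was 0.69 for the 10 genes and -0.27 for all probes.

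**Figure D1:**
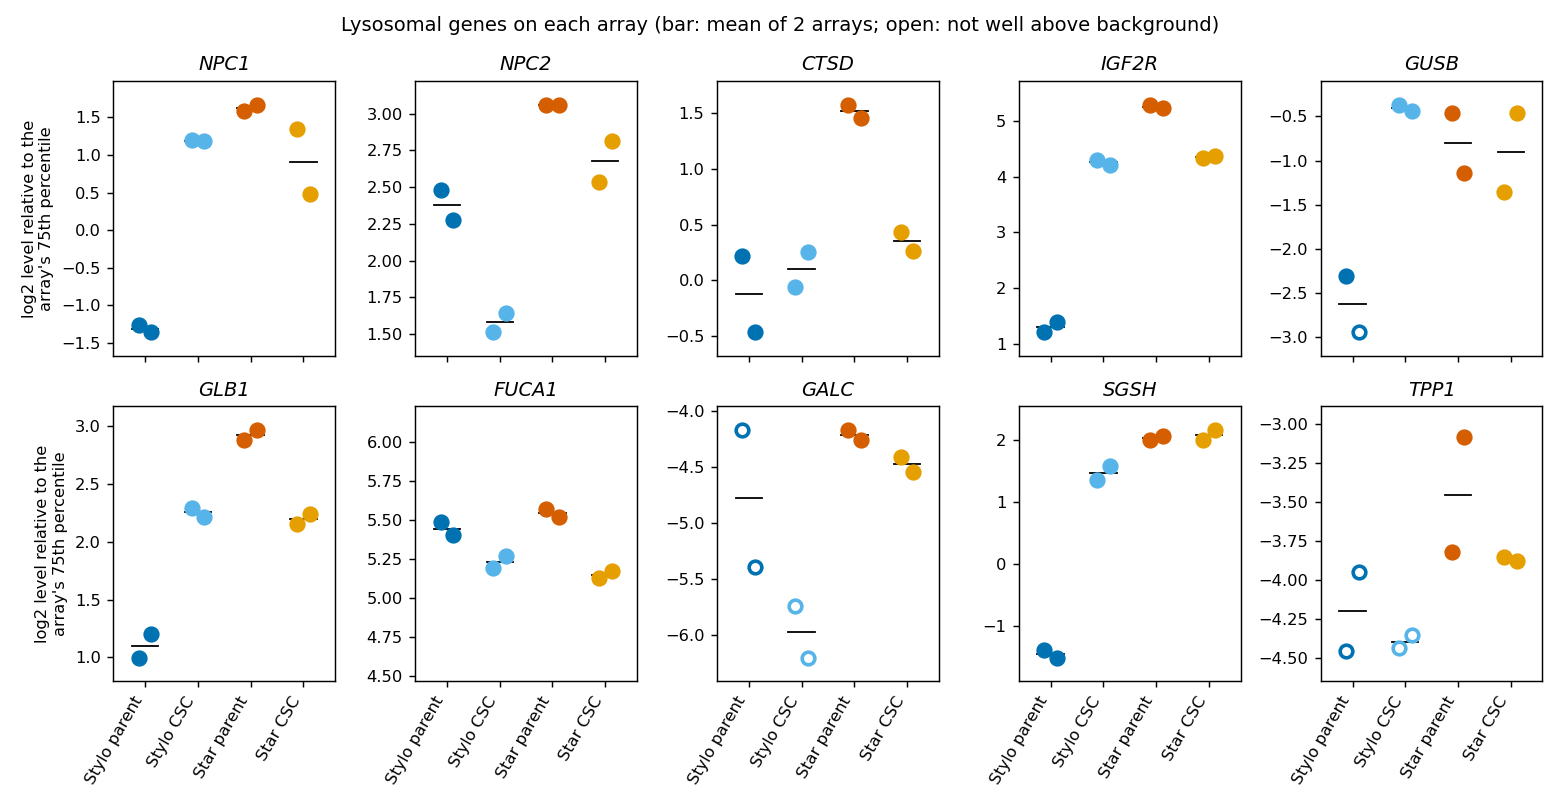
Level of each of the 10 genes on every array, as log2 processed signal relative to the 75th percentile of the array (vertical axis, its own range per gene), for the brightest tested probe in the 4 groups. Points are arrays, bars are the mean of 2 arrays and open points were not well above background; IGF2R, SGSH and NPC1 are lowest on both Stylo parent arrays, while FUCA1 stays between 5.13 and 5.57 on all 8.

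The sorting receptor had the largest log2 change of the 10 genes between the unsorted lines. IGF2R, which carries tagged hydrolases and also binds insulin-like growth factor 2, had levels of 1.20 and 1.38 on the Stylo parent arrays and 4.31 and 4.22 on the Stylo CSC arrays. It reached 5.30 and 5.24 in Star parent and 4.34 and 4.38 in Star CSC. Before scaling these were processed signals of 205 and 181 units in Stylo parent against 14690 and 12556 units in Star parent. No group overlapped another, and Stylo parent lay far below the rest. The level was 15.7-fold higher in Star parent than in Stylo parent (log2 change 3.97 ± 0.10 SE, adjusted p = 4.35e-06) and 7.83-fold higher in Stylo CSC than in Stylo parent (2.97 ± 0.10, adjusted p = 1.21e-05).

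Both other IGF2R probes ran the same way. Probe A_11_P0000028218 was not well above background on either Stylo parent array, and was at least 13.3-fold higher in Star parent and at least 4.55-fold higher in Stylo CSC. Such a bound sets the bright group against the lowest signal that counted as well above background on the dim arrays, or the probe's own signal where that was higher. Probe A_11_P000002443 was well above background on 1 of the 2 Stylo parent arrays and differed by 4.74 ± 0.33 and 3.28 ± 0.33 in the same comparisons (adjusted p = 3.96e-05 and 0.000217).

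Of the cholesterol pair, NPC1 was called in both comparisons with Stylo parent and NPC2 in neither. NPC1, the membrane exporter, had levels of -1.26 and -1.35 in Stylo parent, 1.19 and 1.19 in Stylo CSC, 1.59 and 1.66 in Star parent and 1.34 and 0.47 in Star CSC. Both Stylo parent arrays lay below every other array, and the Star CSC arrays differed from each other by more than any other pair. NPC1 rose 7.63-fold in Star parent (log2 change 2.93 ± 0.27, adjusted p = 0.00013) and 5.64-fold in Stylo CSC (2.49 ± 0.27, adjusted p = 0.000303) over Stylo parent. Its other probe was below background in Stylo parent and was at least 4.12-fold and at least 3.43-fold higher in the same groups.

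NPC2, the soluble cholesterol carrier, had levels of 2.48 and 2.28 in Stylo parent, 1.51 and 1.65 in Stylo CSC, 3.06 and 3.06 in Star parent and 2.53 and 2.82 in Star CSC. The Stylo CSC arrays were the lowest, and no group overlapped another. The change from Stylo parent was 0.68 ± 0.14 in Star parent (adjusted p = 0.00436) and -0.80 ± 0.14 in Stylo CSC (adjusted p = 0.00231), both short of 2-fold. The second NPC2 probe, with levels of 3.04 and 2.90 in Stylo parent and 2.45 and 2.34 in Star parent, went the other way between the unsorted lines, by -0.57 ± 0.10 (adjusted p = 0.00232). For Stylo CSC against Stylo parent the probes had the same sign, with -0.87 ± 0.10 for the second. The direction of NPC2 between the unsorted lines is therefore not settled by this array.

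Of the glycosidases, GLB1 had the most probes. GLB1, lysosomal beta-galactosidase, had levels of 1.00 and 1.20 in Stylo parent, 2.29 and 2.22 in Stylo CSC, 2.89 and 2.97 in Star parent and 2.16 and 2.24 in Star CSC on its brightest probe. Star parent was the highest and Stylo parent the lowest, and the sorted groups overlapped each other. The level was 3.55-fold higher in Star parent (log2 change 1.83 ± 0.11, adjusted p = 2.33e-05) and 2.23-fold higher in Stylo CSC (1.16 ± 0.11, adjusted p = 0.000177) than in Stylo parent.

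All 9 GLB1 probes had a positive change in both comparisons, and they share a target gene, so they are not independent. For Star parent against Stylo parent the changes ran from 0.24 to 2.09 and 7 of 9 probes were called; for Stylo CSC they ran from 0.50 to 1.43 and 6 of 9 were called. The 0.24, with an SE of 0.73, belongs to probe A_11_P053851, whose Star parent arrays lay at -3.40 and -1.57.

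**Figure D2:**
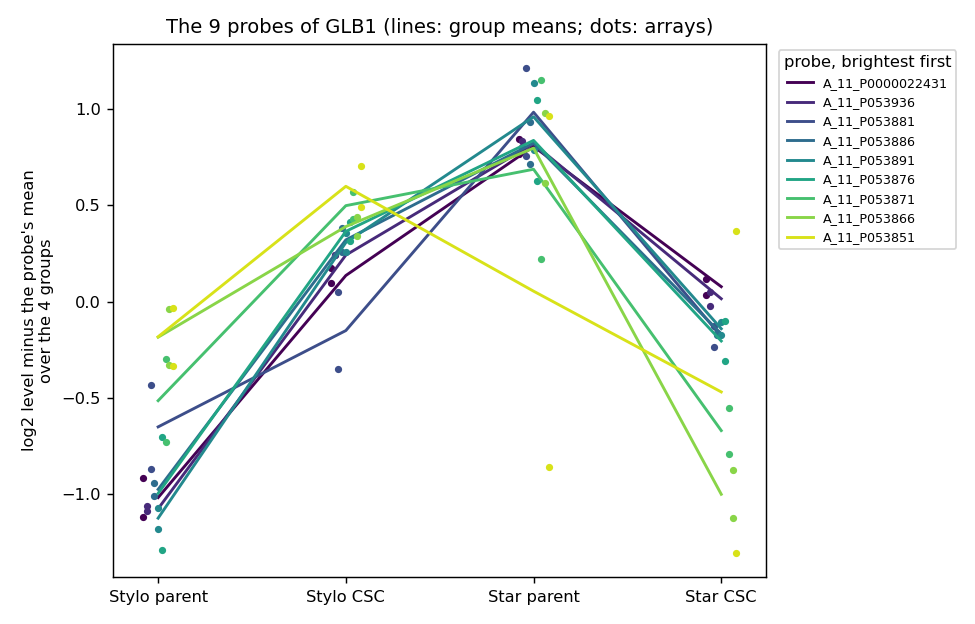
Group means of the 9 GLB1 probes (lines) and their arrays (dots), each probe centred on its own mean over the 4 groups, on a log2 scale. The 8 brighter probes peak in Star parent and are lower in Star CSC; the dimmest, A_11_P053851, peaks in Stylo CSC and has widely separated Star arrays.

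GUSB, beta-glucuronidase, had levels of -2.31 and -2.94 in Stylo parent, the second not well above background, and -0.37 and -0.43 in Stylo CSC. Levels were -0.47 and -1.14 in Star parent and -1.35 and -0.46 in Star CSC. Stylo parent lay below the other groups, and the Star groups overlapped each other. GUSB rose 3.53-fold in Star parent (log2 change 1.82 ± 0.38, adjusted p = 0.00556) and 4.66-fold in Stylo CSC (2.22 ± 0.38, adjusted p = 0.00243) over Stylo parent. With another background correction, the normexp model, these became -0.50 and -0.13.

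FUCA1, the fucosidase that trims fucose from glycoproteins, was not called in any comparison with the main scaling. Its brightest probe had 5.49 and 5.40 in Stylo parent, 5.19 and 5.27 in Stylo CSC, 5.57 and 5.52 in Star parent and 5.13 and 5.17 in Star CSC. The groups did not overlap, but they differed by little. The change from Stylo parent to Star parent was 0.10, with a 95% interval of -0.12 to 0.32, and from Stylo parent to Stylo CSC it was -0.22, with an interval of -0.44 to 0.01. The first of these was called at 1.11 with quantile normalization and at 1.65 with normexp, and was called with cyclic loess as well. The second FUCA1 probe changed by 0.08 ± 0.09 in Star parent and by -0.49 ± 0.09 in Stylo CSC, both over Stylo parent. The latter had a 95% interval of -0.72 to -0.27 (adjusted p = 0.00323), short of 2-fold.

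GALC, the enzyme that splits galactosylceramide of myelin, was near the limit of detection. Its levels were -4.17 and -5.39 in Stylo parent and -5.74 and -6.20 in Stylo CSC, none well above background. They were -4.17 and -4.26 in Star parent and -4.41 and -4.54 in Star CSC, all well above background. The call between Stylo CSC and Stylo parent (log2 change -1.19 ± 0.39, adjusted p = 0.0324) compares signals that both lay below background, so it gives no fold. That call ended without Stylo parent replicate 1 (-0.58), without Stylo CSC replicate 1 (-1.42) and without Stylo CSC replicate 2 (-0.96). In Star CSC GALC was called higher than in Stylo CSC (1.49 ± 0.39, adjusted p = 0.0195), with a bound of at least 1.25-fold. GALC passed the filter only through the Star groups, so this call is no result. That call also ended without Stylo CSC replicate 2 (1.26), without Star CSC replicate 1 (1.43) and without Star CSC replicate 2 (1.56).

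The sulfatase SGSH, which removes sulfate from heparan sulfate, was among the clearest. It had levels of -1.39 and -1.50 in Stylo parent, 1.35 and 1.57 in Stylo CSC, 1.99 and 2.07 in Star parent and 1.99 and 2.16 in Star CSC. The Star groups overlapped each other and lay above Stylo CSC, which lay above Stylo parent. SGSH rose 11.1-fold in Star parent (log2 change 3.48 ± 0.12, adjusted p = 5.54e-06) and 7.49-fold in Stylo CSC (2.91 ± 0.12, adjusted p = 1.34e-05) over Stylo parent.

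CTSD and TPP1 are the proteases of the group. CTSD, the aspartic protease cathepsin D, had levels of 0.22 and -0.47 in Stylo parent, -0.06 and 0.25 in Stylo CSC, 1.57 and 1.45 in Star parent and 0.43 and 0.26 in Star CSC. Star parent stood above the other groups, and the Stylo groups overlapped. CTSD rose 3.11-fold in Star parent over Stylo parent (log2 change 1.64 ± 0.24, adjusted p = 0.00112). In Stylo CSC the change was 0.22, with a 95% interval of -0.37 to 0.82.

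TPP1, a tripeptidyl peptidase, was dim throughout. Its levels were -4.45 and -3.95 in Stylo parent and -4.44 and -4.35 in Stylo CSC, none well above background, against -3.82 and -3.09 in Star parent and -3.85 and -3.88 in Star CSC. Both Star groups lay above both Stylo groups, but TPP1 passed the filter only through the Star groups, so this order is no result. The change from Stylo parent to Star parent was 0.75 ± 0.27 (adjusted p = 0.046), short of 2-fold, and the bound gives no fold.

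**Figure D3:**
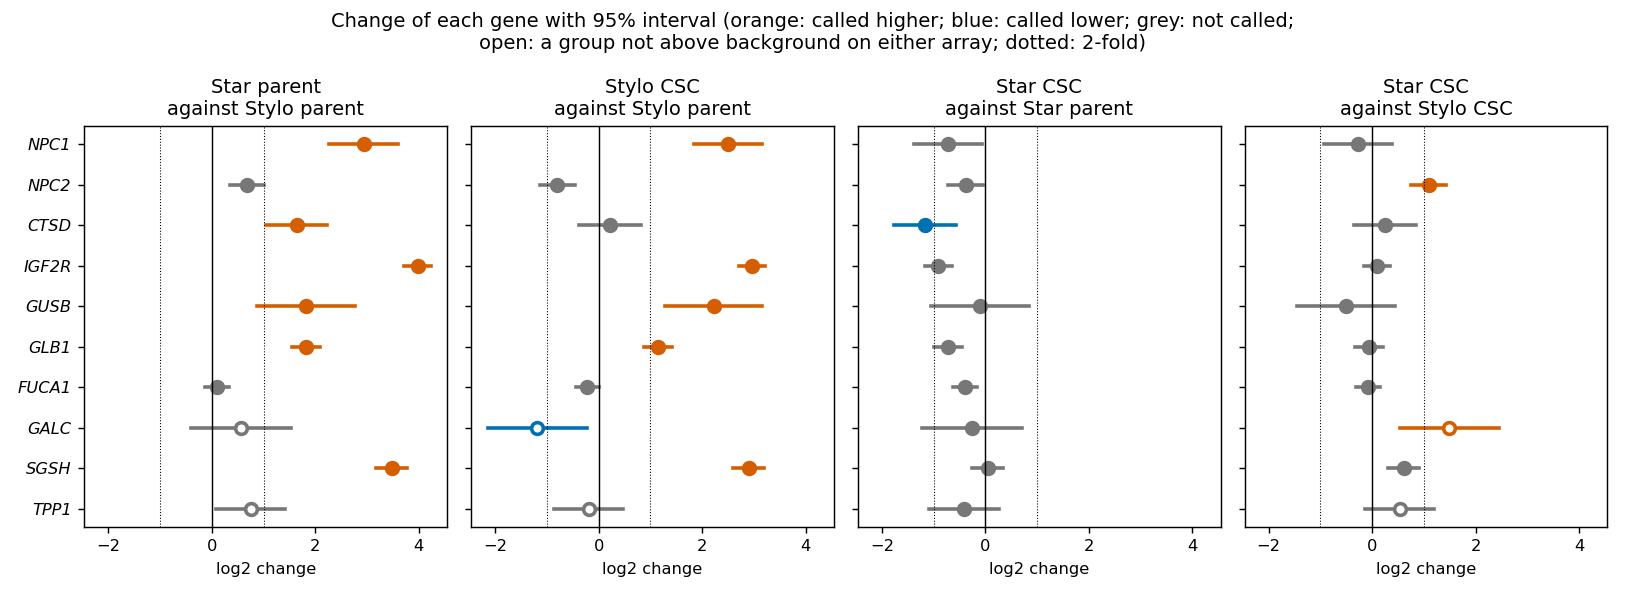
Log2 change of each gene with its 95% interval (horizontal axis) in 4 comparisons of 2 arrays against 2, on the brightest tested probe. Orange marks genes called higher, blue called lower, grey not called, and open points a comparison with a group not above background on either array; the orange points are 6 genes in the first panel and 5 in the second, and CTSD is the blue point of the third.

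In the resistant line, 1 of the 10 genes was called between sorted and unsorted cells. Between Star CSC and Star parent CTSD fell and the other 9 genes were not called. Lower calls took 6.56% of tested probes and 7.38% of named genes, higher calls 3.20% and 5.53%, and both 9.75% and 12.9%. CTSD fell 2.24-fold (log2 change -1.17 ± 0.24, adjusted p = 0.018), and its sorted arrays, at 0.43 and 0.26, lay below both unsorted arrays. The call ended when any 1 of the 4 Star arrays was left out, at changes of -1.08 to -1.25. IGF2R (-0.91 ± 0.10, adjusted p = 0.00316), GLB1 (-0.73 ± 0.11, adjusted p = 0.007) and FUCA1 (-0.40 ± 0.09, adjusted p = 0.0247) passed the adjusted p but not 2-fold.

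Probes other than the brightest gave more calls in that comparison. Over all 23 probes 7 were called lower and none higher: the CTSD probe, IGF2R probe A_11_P0000028218 at -1.04 ± 0.16 and 5 of the 9 GLB1 probes. Of all tested probes 6.56% were called lower and 3.20% higher. The GLB1 probes share a target gene, so they are not independent. All 9 GLB1 changes were negative, from -0.52 to -1.80. Of the remaining genes, NPC1 changed by -0.72 (95% interval -1.38 to -0.06), NPC2 by -0.38, GUSB by -0.10, GALC by -0.26, TPP1 by -0.41 and SGSH by 0.04, none called. Without Star CSC replicate 1, the brightest NPC1 probe changed by -1.15. The second NPC1 probe changed by -0.08 ± 0.09 (adjusted p = 0.555). Its levels were -1.22 and -1.14 in Star parent and -1.24 and -1.27 in Star CSC. Scaling to the spike-in controls turned all negative changes positive, since it moved the median of all tested probes from -0.11 to 1.55 here. Then 6 of the 10 genes were called higher, beside 21941 of all 26819 tested probes called, 99.2% of these higher.

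Between the sorted cells of both lines 2 of the 10 genes were called. NPC2 and GALC were called higher in Star CSC than in Stylo CSC and no gene lower. GALC passed the filter only through the Star groups, so its call is no result. Higher calls took 12.4% of probes and 15.4% of named genes, lower calls 17.1% and 22.6%, and both 29.5% and 38.0%. NPC2 was 2.14-fold higher in Star CSC (log2 change 1.09 ± 0.14, adjusted p = 0.00118), but its second probe changed by -0.08 ± 0.10, and the call ended without Star CSC replicate 2 (0.95). SGSH passed the adjusted p at 0.61 ± 0.12, short of 2-fold (adjusted p = 0.00713). The change of IGF2R was 0.10 (95% interval -0.16 to 0.35), of GLB1 -0.06 (-0.33 to 0.21) and of FUCA1 -0.08 (-0.31 to 0.14). For NPC1 (-0.28, interval -0.94 to 0.38), CTSD (0.25, -0.34 to 0.84) and GUSB (-0.50, -1.45 to 0.44) the intervals are wider. TPP1, not called, changed by 0.53 (interval -0.14 to 1.20), which normexp turned to -0.53.

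GLB1 and IGF2R had further probes in this comparison. All 9 GLB1 changes were negative, from -0.03 to -1.39, and 2 were called lower, at -1.17 ± 0.32 and -1.39 ± 0.18; the mean over the GLB1 probes changed by -0.61, not called. The other IGF2R probes changed by 0.95 ± 0.33 and 0.50 ± 0.16 (adjusted p = 0.0487 and 0.0345), short of 2-fold.

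The change with sorting differed between the lines for 6 genes. The difference, taken as the change in Star minus the change in Stylo, was called negative for NPC1, CTSD, IGF2R, GUSB, GLB1 and SGSH and for no gene positive, beside 24.1% of probes and 21.0% of named genes called negative. The shares called positive were 28.0% and 33.1%, and in either direction 52.1% and 54.1%. Its median was -1.64 for the 10 genes and 0.14 for all tested probes. It was largest for IGF2R (-3.88 ± 0.15, adjusted p = 4.91e-05), which rose on sorting in Stylo and had a change of -0.91 in Star. For GUSB the difference was -0.21 with normexp, not called. The Stylo parent arrays enter this difference as they do the comparisons above, so it is no separate evidence for their low levels.

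Other genes of the lysosome gave a mixed picture. Of 33 further glycosidases, sulfatases and lipid hydrolases 7 could be named and 6 were tested: 4 rose and 1 fell in Star parent over Stylo parent, and 3 rose and 1 fell in Stylo CSC. ARSA, arylsulfatase A, rose by 2.63 ± 0.16 in Star parent, and GALNS, which removes sulfate from keratan sulfate, fell by 1.48 ± 0.31. In Stylo CSC GALNS fell by 2.16, while ARSA rose by 2.25 ± 0.16 and PLA2G15, a lysosomal phospholipase, by 2.24 ± 0.10. IDUA, alpha-iduronidase, was called higher there with a bound of at least 1.34-fold, and normexp turned it to -1.27. Neither Stylo parent array had IDUA well above background. Under normexp 2 genes of this list rose and 1 fell in Star parent, and 2 rose and 3 fell in Stylo CSC. The list of proteases, which also holds the thioesterase PPT1, had 5 tested genes. Of these 3 rose and 1 fell in Star parent, and 1 rose and 2 fell in Stylo CSC. CTSS, cathepsin S, was called higher in Star parent with a bound of at least 1.48-fold, and normexp turned it to -1.12. CTSS passed the filter only through the Star groups, so that rise is no result. PPT1, a thioesterase, fell by 1.70 ± 0.19 in Star parent. In Stylo CSC CTSA, which protects beta-galactosidase in the lysosome, rose by 2.14 ± 0.09, and CTSK, cathepsin K, fell by 1.80 ± 0.11, which spike-in scaling turned to 0.28.

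Of 5 tested lysosomal membrane and proton pump genes 2 rose and 3 fell in Star parent, with CLN3 at 1.69 and SLC11A1 at -2.12, and 1 rose and 2 fell in Stylo CSC, with CLN3 at 1.72 and the proton pump subunit ATP6V0E1 at -1.51. With normexp the CLN3 values became -0.09 and 0.13, neither called. CLN8, the other gene that rose in Star parent, passed the filter only through the Star groups, so that rise is no result. ATP6V0E1, also among the genes that fell in Star parent (-1.73), was called in neither comparison under the 6 other scalings or background corrections. Of 4 tested genes of mannose 6-phosphate tagging and sorting, VPS29 and RAB9A fell in both comparisons and none rose. VPS29, a retromer subunit that returns the receptors to the Golgi, fell by 2.81 and 2.84. RAB9A, a GTPase of the same return route, fell by 2.75 and 1.96. AP3B1, a subunit of an adaptor complex, was not called at 0.69 and 0.93, but was called higher in both comparisons under all 6 others, at up to 2.10 in Star parent and up to 3.01 in Stylo CSC. RAB7A, a GTPase of late endosomes, was called higher in Star parent under 3 of the 6, and in Stylo CSC with spike-in scaling. IGF2R rose in both comparisons. Scaling to spike-in controls turned RAB9A to 0.12 and ATP6V0E1 to 0.58 in Stylo CSC.

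Cholesterol genes beyond NPC1 and NPC2 were few. Of 42 written 4 could be named and 3 were tested: none rose and 1 fell in Star parent, and 1 rose and 1 fell in Stylo CSC. MSMO1, a methylsterol oxidase of cholesterol synthesis, fell in Star parent (-1.38), in Stylo CSC (-2.42) and, against Star parent, in Star CSC (-1.09); spike-in scaling turned the last to 0.56, and normexp turned the first to 0.18. The Star parent call was lost under 5 of the 6 other scalings or corrections. SREBF1, the sterol regulatory factor, was not called in these comparisons. Neither MITF nor FLCN, the tested genes of lysosome biogenesis control, was called. In Star CSC against Star parent MSMO1 was the 1 called gene of all these lists. M6PR, LAMP1, LAMP2, ABCA1, TFEB and SQSTM1 had no probe that could be named.

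The order of the group means on the brightest probe was as follows. NPC1, CTSD, IGF2R, GUSB, GLB1 and SGSH had their lowest mean in Stylo parent, NPC2 in Stylo CSC and FUCA1 in Star CSC. GALC and TPP1 passed the filter only through the Star groups. Neither was well above background on any Stylo array, so no order between the lines is given for them. On the Stylo parent arrays the lowest signal well above background was -3.31 and -3.14, above every GALC level. The highest mean was in Star parent for NPC1, NPC2, CTSD, IGF2R, GLB1 and FUCA1, in Stylo CSC for GUSB and in Star CSC for SGSH. Some other probes had another order. The second NPC2 probe was highest in Stylo parent (2.97) and lowest in Star CSC (2.03). The second FUCA1 probe was lowest in Stylo CSC (4.04). GLB1 probes A_11_P053871, A_11_P053866 and A_11_P053851 were lowest in Star CSC. Likeness was taken as the root mean square difference of the 4 group means, each gene centred on its own mean, over 975 other named genes; it describes 4 points and carries no test. GUSB was nearest to CTSA (0.0334), a partner of GLB1 in the lysosome, and GLB1 to ALDOC (0.0473) and MAP2K1 (0.11). NPC1 was nearest to STAT6 (0.174) and ARSA (0.177), and IGF2R to PKD1 (0.311) and SGSH (0.337). SGSH was nearest to PKD1 (0.196), FUCA1 to MRGPRG (0.0298), CTSD to ADRB3 (0.143), NPC2 to PPFIBP1 (0.156), GALC to HGFAC (0.11) and TPP1 to CEACAM1 (0.114).

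Some calls depended on how the arrays were scaled. In Star parent against Stylo parent, NPC1, CTSD, IGF2R, GLB1 and SGSH were called higher under each of the 19 alternatives run, with lowest changes of 1.92, 1.30, 3.89, 1.50 and 2.05. In Stylo CSC against Stylo parent NPC1, IGF2R, GLB1 and SGSH were called under each of 19, with lowest changes of 1.43, 2.85, 1.05 and 1.43. In the first comparison 8 genes were called with median scaling and with the percentile of detected probes, and 9 with quantile normalization, cyclic loess, spike-in scaling and normexp, against 6. All were higher except GALC and TPP1, which were called lower with normexp. Of all 26819 tested probes 14906 (cyclic loess) to 16007 (normexp) were called under these 6 settings, against 15172 with the main scaling. The share of those calls that were higher ran from 25.2% with normexp to 74.4% with spike-in scaling. NPC2 was called under 5 of these 6, at 1.00 to 1.66, and TPP1 was called higher under 5, at 1.07 to 1.73. GALC and TPP1 passed the filter only through the Star groups, so their higher calls are no result. GALC and TPP1 turned to -1.55 and -1.73 there with normexp, and GUSB to -0.50.

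**Figure D4:**
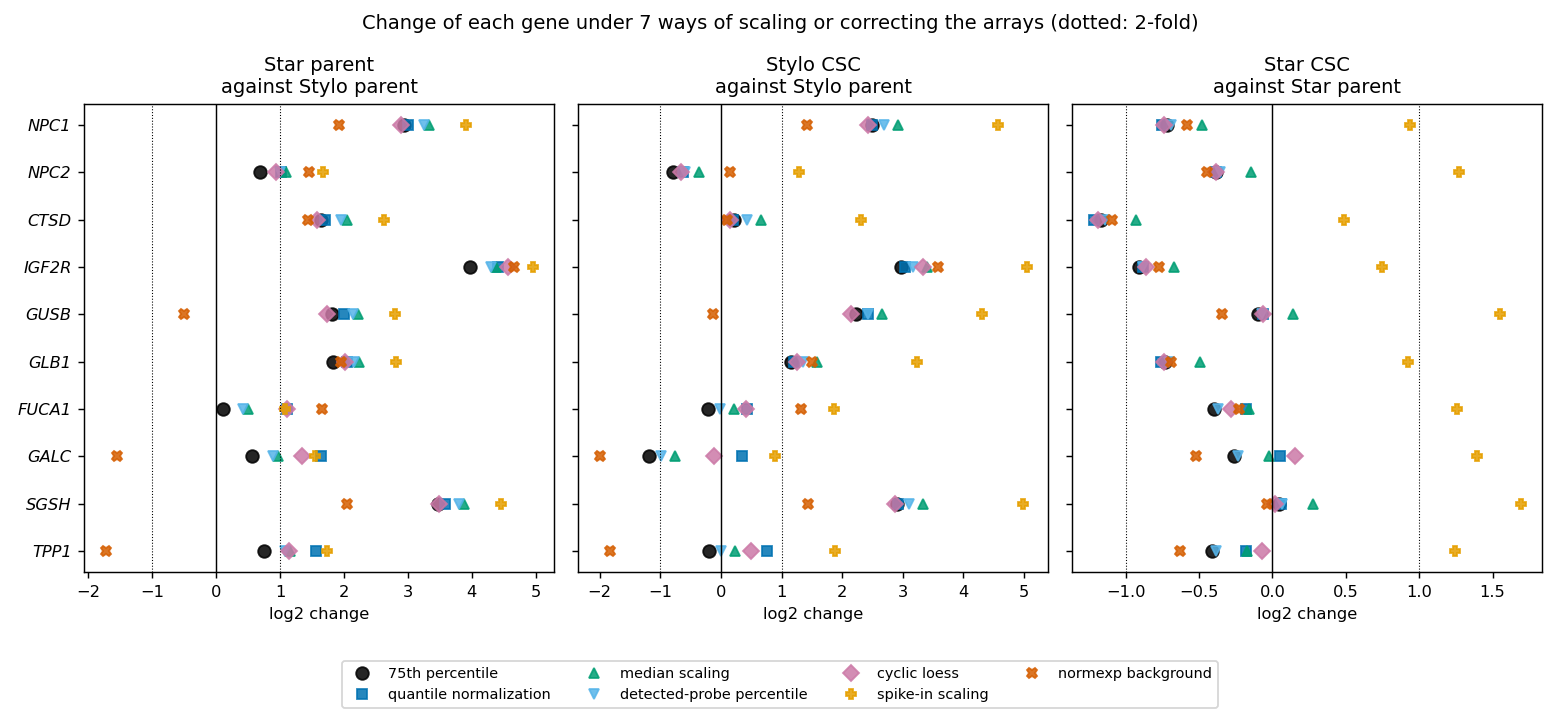
Log2 change of each gene (horizontal axis, its own range per panel) in 3 comparisons under 7 ways of scaling or background correction, 1 symbol each. In the first panel IGF2R, SGSH, NPC1, GLB1 and CTSD stay to the right of the 2-fold line under all 7, GUSB, GALC and TPP1 move left of 0 with normexp, and in the third panel the spike-in symbols lie right of 0 for all 10 genes.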

How the data were processed

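RNA of 8 samples was labelled with Cy3 from 0.5 ug of RNA (integrity number of at least 7) and hybridised to 1-colour Agilent arrays, per the labels' protocols. The deposited scanner files hold processed signal intensity from Agilent Feature Extraction 11.5.1.1, per the submitters' processing notes. The authors' deposited log2 table was also read: it matched the scanner values centred per probe (correlation at least 0.999997, column medians -0.27 to 1.01), so its scale and centring are known from the data. Outlier spots were left out, spots of a probe averaged, and each array's log2 75th percentile over gene spots subtracted. A probe was tested if some group had it well above background on each of its 2 arrays, with limma 3.58.1 (R 4.3.3), 4 group means on 8 arrays, and the script was tested on simulated data. Probes were named through RefSeq accessions; 2353 probes matched. A gene is its brightest tested probe. Other genes named were, per list and comparison, those with the largest called rise and fall, and for each member the 2 most alike, of which some are printed. The members and lists were chosen with earlier results of these data known. Probe sequences and coordinates were not used here. The replicate numbers did not pair the arrays (correlation of deviations -0.07 to 0.07).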

Additional observations from a re-analysis of the deposited data

Results flagged for a closer look

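The change with sorting differed between the 2 lines for 6 genes, by the test of the difference itself (limma, change in Star minus change in Stylo, log2 scale). Of all tested probes 24.1% were called negative and 52.1% in either direction, and of named genes 21.0% and 54.1%. The dimmer Stylo parent arrays enter this difference. The difference was -3.21 ± 0.38 for NPC1 (adjusted p = 0.000676), -1.39 ± 0.34 for CTSD (adjusted p = 0.0132) and -3.88 ± 0.15 for IGF2R (adjusted p = 4.91e-05). It was -2.32 ± 0.54 for GUSB (adjusted p = 0.0109), -1.89 ± 0.16 for GLB1 (adjusted p = 0.000173) and -2.86 ± 0.17 for SGSH (adjusted p = 7.13e-05). With normexp the GUSB difference was -0.21 (limma, adjusted p = 0.627), and its call was lost. Groups of 2 arrays are too small for a check of single arrays that stand apart.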

How the results depend on the processing

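Of 987 values of single genes under alternatives 60 changed sign, 42 of them where neither value was called; the cause was not tested. The count of called genes stayed within 1.5 times of the main count of 6, 6 and 6 for Star parent against Stylo parent, Stylo CSC against Stylo parent and the difference in sort effect. Leaving out 1 array gave 6 to 7, 5 to 6 and 6 to 7 there. For Star CSC against Star parent (1 called) the count was 0 with median scaling, 6 with spike-in scaling, 4 with no fold limit, 2 with the mean over probes, and 0 to 1 without 1 array. For Star CSC against Stylo CSC (2 called) it was 1 with quantile normalization, 0 with normexp, 1 with probes well above background on all arrays, 1 with the mean over probes, and 0 to 2 without 1 array. The fit with the replicate block gave 6, 6, 1, 2 and 6, the main counts, and changed no call. A fit without the Stylo parent arrays, chosen after seeing the data, gave 1 and 2 for the comparisons of Star CSC.

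Signs turned as follows. In Star parent against Stylo parent: normexp, GUSB -0.50, GALC -1.55, TPP1 -1.73; without 1 array, GALC -0.045 to 1.17. In Stylo CSC against Stylo parent: quantile, FUCA1 0.43, GALC 0.35, TPP1 0.76; median scaling, FUCA1 0.22, TPP1 0.24; percentile of detected probes, TPP1 0.0083; cyclic loess, FUCA1 0.42, TPP1 0.50; spike-in, NPC2 1.28, FUCA1 1.87, GALC 0.89, TPP1 1.89; normexp, NPC2 0.14, GUSB -0.13, FUCA1 1.32; without 1 array, CTSD -0.12 to 0.56 and TPP1 -0.44 to 0.058. In Star CSC against Star parent: quantile, GALC 0.054; median scaling, GUSB 0.14; cyclic loess, GALC 0.15; spike-in, NPC1 0.94, NPC2 1.27, CTSD 0.49, IGF2R 0.74, GUSB 1.55, GLB1 0.92, FUCA1 1.26, GALC 1.39, TPP1 1.24; normexp, SGSH -0.035; without 1 array, GUSB -0.55 to 0.35 and SGSH -0.040 to 0.12. In Star CSC against Stylo CSC: quantile, GLB1 0.072, FUCA1 0.50; median scaling, GLB1 0.15, FUCA1 0.13; percentile of detected probes, GLB1 0.090, FUCA1 0.067; cyclic loess, GLB1 0.028, FUCA1 0.40; spike-in, NPC1 0.28, GUSB 0.052, GLB1 0.50, FUCA1 0.47; normexp, FUCA1 0.11, GALC -0.066, TPP1 -0.53; mean over probes, FUCA1 0.072; without 1 array, NPC1 -0.71 to 0.16. In the difference in sort effect: quantile, GALC -0.30; spike-in, NPC2 -0.015; normexp, NPC2 -0.59, TPP1 1.20; without 1 array, TPP1 -0.58 to 0.15.

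Over all tested probes, in the order of the 5 comparisons, 15172, 14478, 2616, 7913 and 13964 were called. Without a filter on dim probes 26751, 28635 and 21929 were called in the first, the second and the last. Spike-in scaling gave 21941 in the third and 8745 in the last, normexp 1143 and 4019 and no fold limit 7946 and 15313 in the third and the fourth. The share of calls that were higher was 43.5%, 40.6%, 32.8%, 42.2% and 53.8%. With quantile normalization it was 55.3%, 53.9%, 46.6% and 52.4% in the first 4, with median scaling 56.9%, 57.2%, 58.7% and 56.2%, and with spike-in scaling 74.4%, 98.2%, 99.2%, 73.4% and, in the last, 34.0%. It was 54.3% in the first with the percentile of detected probes, 51.8% and 47.4% in the second and the third with cyclic loess, and 25.2%, 25.8% and 70.1% in the first, the second and the last with normexp. The median of all probes moved to 0.78, 1.81, 1.55 and 0.44 with spike-in scaling in the first 4.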
